A study of Homo sapiens with 9 samples.

Results

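The genes described here are the pro-apoptotic members of the BCL2 family: the BH3-only genes BCL2L11, PMAIP1, BBC3, BAD, BID, BIK, BMF and HRK, and the effectors BAX and BAK1. They were chosen from their known roles, with earlier results of these data already known. Each was read from the probe set that carried its symbol and no other. All 10 had exactly 1 such probe set on the array, out of 22109 genes measured. RNA came from 9 samples of MDA-MB-231, a human breast cancer line established from a pleural effusion, in 3 groups of 3 arrays. The 20 h group was given YM-155 (sepantronium bromide) at 14.6 ng/ml, described as its LC50, for 20 h. The 8 h group was given YM-155 in steps that summed to 83 ng/ml and was taken at 8 h, when the submitters saw no obvious cell death. The control group was untreated, with no time given, while YM-155 had been dissolved in DMSO and diluted in buffered saline. Time and dose therefore differed together between the treated groups, and neither can be told apart from the other. The labels do not say that the 3 samples of a group came from separate cultures, so p-values speak only to how far these particular samples vary, and that variation may be technical. All values are log2 RMA levels of a probe set, or differences between such levels. In bulk RNA, fewer cells that express a gene and less of its RNA per cell cannot be told apart.

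BH3-only proteins start the mitochondrial route to apoptosis. They bind the pro-survival proteins BCL2, BCL-XL and MCL1 through a short helix, the BH3 domain, and some of them also activate BAX and BAK directly. BAX and BAK then form pores in the outer mitochondrial membrane, through which cytochrome c leaves to assemble the caspase-activating apoptosome. BH3-only genes differ in how they are switched on: BIM, NOXA and PUMA are known to be induced at the RNA level by growth factor loss and stress, whereas BAD is held by phosphorylation and BID by the need for cleavage. YM-155 is a small molecule introduced as a suppressor of survivin (BIRC5) expression.

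Markers expected to be high in the line were present, while most of those expected to be low were not among the lower genes. Array medians ran from 3.11 to 3.20. RMA normalizes arrays to each other, so these medians cannot compare the RNA level of the samples. The mesenchymal and basal markers VIM, CD44, CAV1 and AXL lay between 7.76 and 10.9 on all 9 arrays. CAV1 fell at both times, averaging 7.86 at 20 h, 7.96 at 8 h and 8.34 in controls, and CD44 rose at 8 h. The 6 luminal and receptor markers, expected to be low, ran from 1.81 for PGR to 6.29 for EPCAM. In controls ESR1 (2.77) and PGR (2.04) averaged below the median of all genes, 3.89. EPCAM (6.16), KRT18 (5.35), GATA3 (4.47) and CDH1 (4.40) averaged above it. Of the 6 markers, 1 was called against control, CDH1, which rose at 8 h (mean 4.86 at 8 h against 4.40 in controls). The leukocyte markers PTPRC and CD3E lay between 1.67 and 2.20, and CD14 between 2.95 and 4.30. Endothelial VWF and CDH5 lay between 2.51 and 3.06. Of the smooth muscle markers, MYH11 lay between 3.10 and 3.34 and DES between 3.75 and 5.05. DES averaged 4.65 at 20 h, 3.95 at 8 h and 4.19 in controls, all above the median of all genes. CD14 averaged above that median at 20 h only (3.93). Of 3 leukocyte markers measured, 1 was called, CD14, which rose at 20 h, and none of the 2 endothelial or the 2 smooth muscle markers was called in either comparison with control. Control replicate 3 stood apart from the other controls: its level minus their mean ran from -0.15 for BMF to 0.96 for BAX across the 10 genes, with a median of 0.14. Leaving it out changed the call or the direction of some values printed below. For some of these, not all, the value without it stands beside the printed one. Sign changes among the 10 genes with 1 array left out are given as ranges in the section on processing.

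The first question was which of these genes differed from untreated cells after 20 h. BCL2L11, PMAIP1 and BBC3 rose, by 2.46-fold, 2.40-fold and 1.85-fold, and none of the 10 fell. The other 7 did not pass the test, with log2 differences between -0.01 and 0.34. Over all genes, 13.1% were called higher in this comparison and 17.2% lower (limma, Benjamini-Hochberg adjusted p under 0.05 over the 22109 genes). The median log2 difference was 0.10 over the 10 genes and 0.03 over all genes. Exactly the 3 called genes had every 20 h array above every control array, a separation found upward in 19.2% of all genes.

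After 8 h the upward set was smaller: PMAIP1 rose 1.87-fold and BCL2L11 rose 1.51-fold. The remaining 8 genes did not pass, with log2 differences from -0.52 for BAX to 0.09 for BBC3, and none fell by the test. Over all genes 5.93% were called higher and 6.28% lower. All 8 h arrays lay above all controls for the same 2 genes of the family, and for 12.9% of all genes. The median log2 difference was 0.0013 over the 10 genes and -0.0031 over all genes. The comparisons at 20 h and at 8 h share their 3 control arrays and are not independent of each other.

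**Figure D1:**
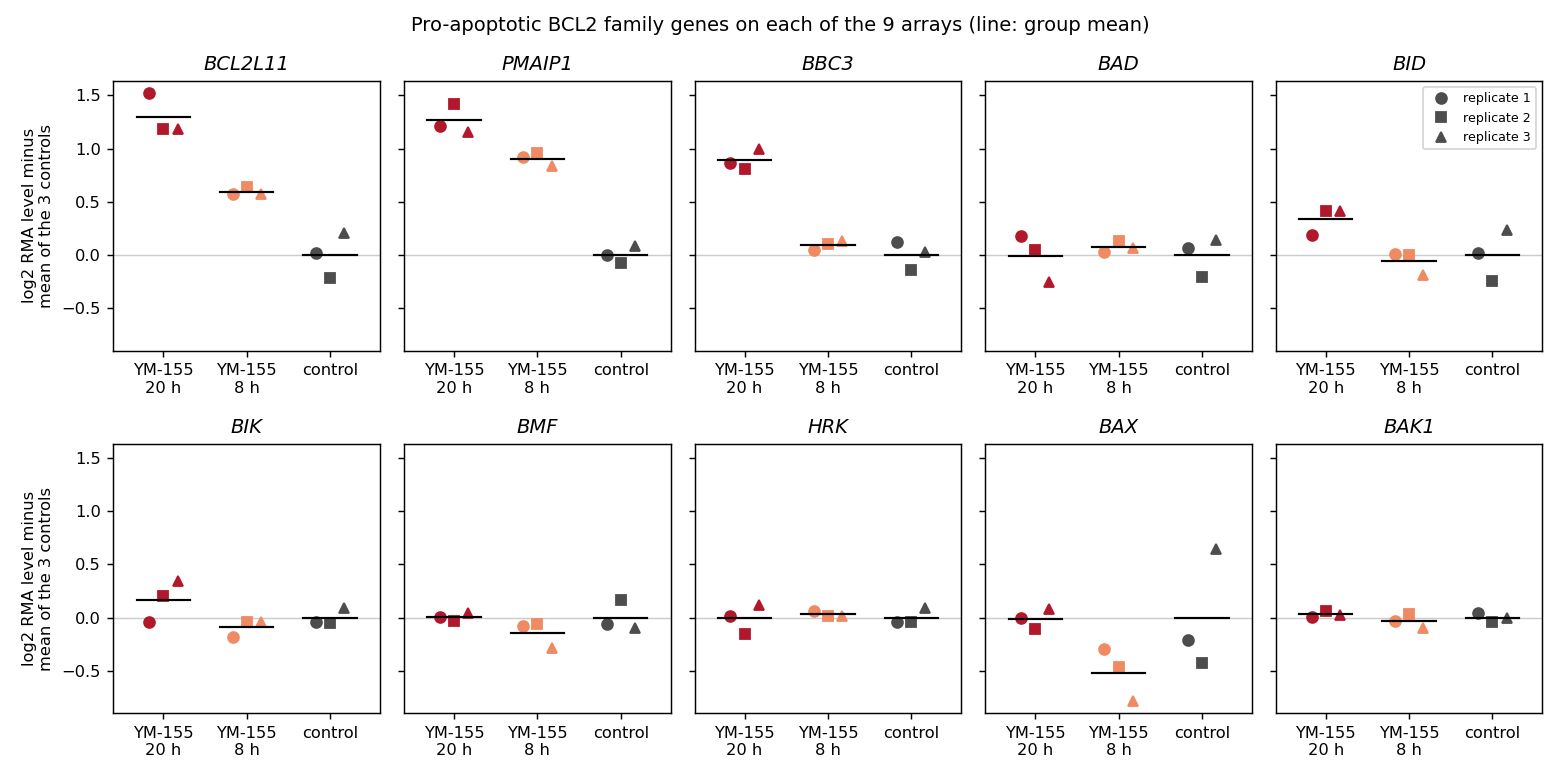
Level of each gene on each of the 9 arrays, as log2 RMA level minus the mean of the 3 control arrays (vertical axis, log2 units), for the YM-155 20 h, YM-155 8 h and control groups. Points are arrays with a symbol for each replicate number, and black lines are group means. BCL2L11 and PMAIP1 lie above all controls in both treated groups, BBC3 does so at 20 h, and the control 3 triangle of BAX stands 0.96 above the mean of the other controls.

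BCL2L11 encodes BIM, which binds all the main pro-survival proteins and can activate BAX and BAK. Its levels were 6.11, 5.77 and 5.77 on the 20 h arrays, 5.15, 5.22 and 5.15 on the 8 h arrays, and 4.60, 4.36 and 4.79 on the control arrays. The 3 groups did not overlap: all 20 h arrays lay above all 8 h arrays, and those above all controls. The 20 h mean exceeded the control mean by 1.30 (SE 0.13, limma adjusted p = 2.71e-05), from group levels of 5.88 ± 0.19 at 20 h and 4.59 ± 0.21 in controls (SD, n = 3). The 8 h mean of 5.18 ± 0.04 exceeded it by 0.59 (SE 0.13, limma adjusted p = 0.0123). The 20 h mean exceeded the 8 h mean by 0.71 (SE 0.13, limma adjusted p = 0.00267). Among all 22109 genes, the rise of BCL2L11 ranked 337 at 20 h and 715 at 8 h.

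PMAIP1 encodes NOXA, a BH3-only protein that binds chiefly MCL1. Its levels were 8.61, 8.81 and 8.55 on the 20 h arrays, 8.31, 8.35 and 8.23 on the 8 h arrays, and 7.39, 7.31 and 7.47 on the control arrays. Again no group overlapped another, and the spread within each group was small beside the gaps to the controls. The rise was 1.26 at 20 h (SE 0.09, limma adjusted p = 4.04e-06) and 0.90 at 8 h (SE 0.09, limma adjusted p = 0.000187). The gap between the treated groups was smaller, 0.36 (SE 0.09, limma adjusted p = 0.0173). That last call ended without 20 h replicate 2 (0.28, adjusted p = 0.0590) and without 8 h replicate 3 (0.33, adjusted p = 0.0633). Over all genes, its rise ranked 293 at 8 h and 350 at 20 h.

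BBC3 encodes PUMA, a BH3-only protein that, like BIM, binds all the main pro-survival proteins. Its levels were 5.20, 5.14 and 5.33 on the 20 h arrays, 4.38, 4.44 and 4.47 on the 8 h arrays, and 4.45, 4.19 and 4.36 on the control arrays. The 20 h arrays stood apart from all the others, and the 8 h arrays overlapped the controls. The difference from control was 0.89 at 20 h (SE 0.09, limma adjusted p = 3.97e-05) and 0.09 at 8 h (SE 0.09, limma adjusted p = 0.608), with a 95% interval at 8 h of -0.11 to 0.30. The difference between the treated groups was itself tested: BBC3 was higher at 20 h than at 8 h by 0.79 (SE 0.09, limma adjusted p = 0.000204).

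The promoter windows of these 3 genes, which moved upward together at 20 h, are shown with the matches to 7 short motifs in capitals. Windows were found for 9 of the 10 genes, all but BIK. The sequences are RefSeq's, on GRCh38.p14, each with 250 bases before and 50 after a transcript start, on the strand of the gene. They lie at chr2:111120664-111120963 (plus strand) for BCL2L11, chr18:59899746-59900045 (plus strand) for PMAIP1 and chr19:47232618-47232917 (minus strand) for BBC3.
BCL2L11: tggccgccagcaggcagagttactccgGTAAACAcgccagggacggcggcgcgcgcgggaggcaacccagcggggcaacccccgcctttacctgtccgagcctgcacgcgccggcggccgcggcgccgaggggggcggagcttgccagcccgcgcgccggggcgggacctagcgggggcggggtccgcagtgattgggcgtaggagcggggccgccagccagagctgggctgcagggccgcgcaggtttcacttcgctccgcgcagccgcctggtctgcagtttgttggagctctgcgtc
PMAIP1: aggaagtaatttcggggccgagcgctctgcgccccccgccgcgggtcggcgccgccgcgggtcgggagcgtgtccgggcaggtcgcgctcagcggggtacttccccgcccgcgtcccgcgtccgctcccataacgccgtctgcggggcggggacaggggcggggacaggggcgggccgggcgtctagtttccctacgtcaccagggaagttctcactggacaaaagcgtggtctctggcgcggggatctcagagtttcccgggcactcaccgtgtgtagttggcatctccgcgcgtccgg
BBC3: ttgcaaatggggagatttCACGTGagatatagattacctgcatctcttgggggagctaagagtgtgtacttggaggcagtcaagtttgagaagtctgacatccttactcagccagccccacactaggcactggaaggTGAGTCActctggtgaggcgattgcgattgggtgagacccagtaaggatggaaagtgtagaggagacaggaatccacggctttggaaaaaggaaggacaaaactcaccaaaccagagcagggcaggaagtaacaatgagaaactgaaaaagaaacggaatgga

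The motifs searched, on both strands, were TGACGTC (CREB and ATF type), TGANTCA (AP-1 type), TTGCATC (part of the ATF4 and CEBP composite element), TGTTTAC (forkhead type), CACGTG (E-box), GTGGGCG (EGR type) and TTTCGCG (E2F type). BCL2L11 held 1 match, the forkhead type, read as its reverse complement, which began 223 bases before the start. That motif was present in 3.42% of the 35116 RefSeq windows of the same length. BBC3 held an E-box beginning 232 bases before the start and an AP-1 type match beginning 113 bases before it, motifs present in 7.26% and 7.71% of all windows. PMAIP1 held no match to any of the 7, which says only that these letters are not in this window. No motif was shared by the windows of the 3 genes. The windows of BCL2L11 and PMAIP1 were 74.7% and 71.3% G and C, against a median of 58.7% over all windows, and that of BBC3 was 48.0%. Among the other genes of the family, the BAX window held 4 E-boxes. Overlapping BID windows held the same single E-box, and a BID window and the BAK1 window each held an EGR type match. The EGR type motif was present in 9.52% of all windows. A match is a description of the sequence and not evidence of binding.

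BID is the BH3-only protein that caspase-8 cleaves to link death receptors to the mitochondrion. Its levels were 6.21, 6.43 and 6.43 on the 20 h arrays, 6.03, 6.02 and 5.83 on the 8 h arrays, and 6.03, 5.77 and 6.25 on the control arrays. The 20 h arrays lay above all 8 h arrays but overlapped the controls, because control replicate 3 was above the lowest 20 h array. Against control the log2 difference was 0.34 at 20 h (95% interval 0.05 to 0.62, limma adjusted p = 0.0724) and -0.06 at 8 h (limma adjusted p = 0.843). Without control replicate 3, the 20 h difference was 0.45 and passed (limma adjusted p = 0.0169). BID was higher at 20 h than at 8 h by 0.40 (SE 0.13, limma adjusted p = 0.0480), a call close to the threshold. It ended without any 1 of the 8 h arrays (adjusted p from 0.0816 to 0.160), without 20 h replicate 2 (0.137) or 3 (0.137), and without control replicate 1 (0.0674).

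BAD, a BH3-only protein controlled mainly by phosphorylation and 14-3-3 binding, had levels of 5.76, 5.64 and 5.34 at 20 h, 5.62, 5.72 and 5.65 at 8 h, and 5.65, 5.39 and 5.73 in controls. The 3 groups overlapped, with log2 differences of -0.01 at 20 h (95% interval -0.29 to 0.27) and 0.07 at 8 h (95% interval -0.21 to 0.35). BMF, a BH3-only protein tied to the cytoskeleton, had levels of 4.55, 4.51 and 4.59 at 20 h, 4.46, 4.48 and 4.25 at 8 h, and 4.48, 4.71 and 4.44 in controls. Its log2 difference was 0.0037 at 20 h (95% interval -0.21 to 0.22) and -0.14 at 8 h (95% interval -0.36 to 0.07). These intervals leave room for changes of up to about 0.36 in either gene, so a small change was not detectable with 3 arrays a group.

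BIK and HRK were the only genes of the 10 whose mean over the 9 arrays, 2.93 and 2.86, lay below the median of all genes, 3.89. BIK encodes a BH3-only protein of the endoplasmic reticulum, and HRK one known mainly from neurons. BIK had levels of 2.87, 3.11 and 3.25 at 20 h, 2.72, 2.86 and 2.86 at 8 h, and 2.86, 2.86 and 3.00 in controls. The 20 h arrays lay just above the 8 h arrays and overlapped the controls. The difference between 20 h and 8 h was 0.26 (95% interval 0.02 to 0.49, limma adjusted p = 0.111), and it passed without 20 h replicate 1 (0.36, adjusted p = 0.0286). HRK stayed between 2.70 and 2.97 on all 9 arrays, with differences from control of -0.0037 at 20 h (95% interval -0.20 to 0.19) and 0.03 at 8 h (95% interval -0.16 to 0.23). Its 3 groups overlapped throughout.

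The effectors came next. BAX, which moves from the cytosol to mitochondria when activated, had levels of 6.60, 6.49 and 6.68 at 20 h, 6.30, 6.13 and 5.81 at 8 h, and 6.39, 6.17 and 7.24 in controls. The control array at 7.24 was replicate 3, which lay above every other array, while controls 1 and 2 lay below all 20 h arrays. With it, BAX had the widest spread within groups of the 10 genes, 0.36, against 0.05 to 0.17 for the others. The log2 difference from control was -0.01 at 20 h (95% interval -0.54 to 0.52, limma adjusted p = 0.985) and -0.52 at 8 h (95% interval -1.05 to 0.01, limma adjusted p = 0.221). Without control replicate 3, the difference at 20 h turned to 0.31 (adjusted p = 0.145) and that at 8 h was -0.20 (adjusted p = 0.484). BAX thus had no direction at 20 h that held across the arrays. The 20 h and 8 h arrays of BAX did not overlap, with a difference of 0.51 (SE 0.24, limma adjusted p = 0.166) that passed without control replicate 3, which enters that comparison only through the shared spread (adjusted p = 0.0192), and with only the 2 groups compared (0.0296).

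BAK1, the effector resident in the mitochondrial membrane, was the most even of the 10. Its levels were 6.38, 6.44 and 6.39 at 20 h, 6.34, 6.41 and 6.28 at 8 h, and 6.42, 6.33 and 6.37 in controls. The differences from control were 0.03 at 20 h (95% interval -0.13 to 0.19) and -0.03 at 8 h (95% interval -0.19 to 0.13), so changes beyond 0.20 in either direction lay outside both intervals.

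**Figure D2:**
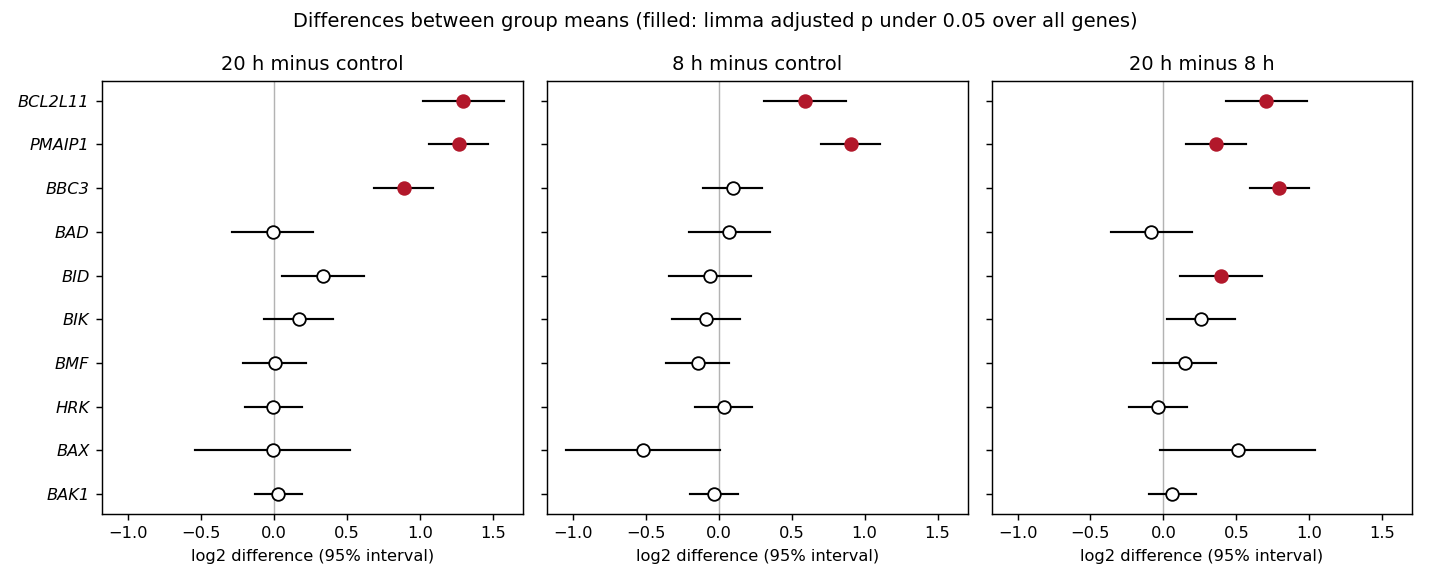
Differences between group means in log2 units (horizontal axis) with 95% intervals from limma, for the 10 genes, in 3 comparisons. Filled points passed an adjusted p of 0.05 over all genes. BCL2L11 and PMAIP1 are filled in all 3 panels, BBC3 at 20 h and between 20 h and 8 h, and BID only between 20 h and 8 h, while the interval of BAX is the widest.

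The third comparison set 20 h at the lower dose against 8 h at the higher dose. Of the 10 genes, 4 were higher at 20 h (BCL2L11, PMAIP1, BBC3 and BID) and none was lower, where 8.95% of all genes were called higher and 13.6% lower. Every 20 h array exceeded every 8 h array for 7 of the 10, these 4 with BIK, BMF and BAX, a separation found upward in 17.8% of all genes. BAD, HRK and BAK1 overlapped. The median log2 difference of the 10 was 0.31, against 0.02 for all genes. Without 8 h replicate 3, or without 20 h replicate 2, 2 of the 10 were called, BCL2L11 and BBC3.

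The genes whose levels followed each called member most closely over the 9 arrays were found by Pearson correlation among the 11046 other genes above the median level. Such correlations mostly carry the differences between the 3 groups and are given as descriptions only. For BCL2L11 they were LMCD1 (r = 0.989), JUN (r = 0.988) and RSL1D1 (r = 0.987). For PMAIP1 they were AVPI1 (r = 0.993), ETS1 (r = 0.992) and CSRNP1 (r = 0.992). For BBC3 they were HSPA6 (r = 0.993), RGS2 (r = 0.989) and CFB (r = 0.986). The neighbours of BBC3 shared its shape of a step at 20 h: RGS2 averaged 8.42 at 20 h, 5.73 at 8 h and 5.26 in controls. Those of PMAIP1 were already high at 8 h: ETS1 averaged 9.78 at 20 h, 9.53 at 8 h and 8.67 in controls.

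On the pro-survival side, the partners that BH3-only proteins bind moved in different directions. MCL1, the main partner of NOXA, rose by 0.54 at 20 h (SE 0.07, limma adjusted p = 0.000248), with levels of 9.55, 9.54 and 9.48 at 20 h against 8.97, 8.97 and 8.98 in controls. At 8 h it averaged 9.73 ± 0.08 (SD, n = 3) and rose by 0.75 (limma adjusted p = 0.000153). BCL2 fell by 1.12 at 20 h (limma adjusted p = 0.000187) and differed by 0.0048 at 8 h. BCL2L1, which encodes BCL-XL, differed by -0.10 at 20 h (adjusted p = 0.502) and by -0.29 at 8 h (adjusted p = 0.110). Of the 5 pro-survival genes measured, 1 rose and 1 fell at 20 h, where 13.1% of all genes were called higher and 17.2% lower. At 8 h 1 rose and none fell, against 5.93% and 6.28% of all genes, and counts this small cannot be set apart from those shares. Of 8 other genes of the family and its BNIP relatives, BNIP1 and BNIP3L rose at both times and none fell, beside the same shares of all genes. The call of BNIP1 at 8 h and both calls of BNIP3L ended without any 1 of the 8 h arrays, the highest adjusted p over all settings being 0.0975 for BNIP1 at 8 h and 0.0676 at 8 h and 0.303 at 20 h for BNIP3L. Without control replicate 3, BNIP3L differed by 0.18 at 20 h (adjusted p = 0.0932), which left BNIP1 as the 1 gene of the 8 called there. BOK, the third pore-forming relative, differed by -0.06 at 20 h and -0.0065 at 8 h. Without control replicate 3 these differences turned to 0.0053 and 0.061 (limma adjusted p = 0.972 and 0.723).

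Downstream of the mitochondrial pore, more genes fell than rose at 20 h. Of 12 genes of mitochondrial release, the apoptosome and the caspases, 2 rose and 5 fell at 20 h, with a median log2 difference of -0.14, beside 13.1% and 17.2% of all genes. CASP6, an executioner caspase, fell by 1.64 (limma adjusted p = 2.31e-05), and APAF1, the scaffold of the apoptosome, fell by 0.97 (limma adjusted p = 0.000225). The voltage-dependent channel VDAC3 fell by 0.89 and AIFM1, a mitochondrial flavoprotein, by 0.86. CYCS, which encodes cytochrome c, rose by 1.07 (limma adjusted p = 0.000170). CYCS averaged 4.55 at 20 h and 3.48 in controls, and CASP6 averaged 3.48 at 20 h and 5.11 in controls. The lower mean of each lay below the median of all genes, 3.89. The other 2 calls at 20 h, HTRA2 (-0.46) and the nuclease gene ENDOG (0.25), passed in 9 and 7 of the 19 alternatives, with adjusted p of up to 0.133 and 0.121. Without control replicate 3 both calls ended, at -0.29 (adjusted p = 0.119) for HTRA2 and 0.24 (adjusted p = 0.0724) for ENDOG. In that setting CASP9 (0.40, limma adjusted p = 0.00247) and XIAP (-0.35, limma adjusted p = 0.0324) passed instead. The counts there were again 2 that rose and 5 that fell. At 8 h none of the 12 rose and 2 fell, where 5.93% of all genes were called higher and 6.28% lower. The 2 were HTRA2, which fell by 0.56, and AIFM1, which fell by 0.44, and each of these calls ended without control replicate 2, among other arrays left out (highest adjusted p over all settings 0.129 for HTRA2 and 0.0844 for AIFM1). The 8 h call of HTRA2 also ended without control replicate 3 (-0.39, adjusted p = 0.0760), and 1 of the 12 then rose and 3 fell.

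Transcription factors described as regulators of BH3-only genes mostly rose at 20 h. Of 15 measured, 11 rose and 1 fell at 20 h, where 13.1% of all genes were called higher and 17.2% lower, and 8 rose and 0 fell at 8 h, where the shares were 5.93% and 6.28%. The list medians were 1.46 and 0.67 against 0.03 and -0.0031 over all genes. Without control replicate 3, 9 of the 15 rose and 0 fell at 8 h. This list was assembled with results of these data already known, and many of its genes are immediate early or stress genes. At 20 h the largest rises were those of EGR1 (4.03), ATF3 (3.57), FOS (2.92), MYC (2.43), SNAI2 (1.95) and DDIT3 (1.60). The 1 that fell was E2F1, by 0.73. At 8 h ATF3 rose by 2.63, SNAI2 by 1.62 and MYC by 1.25, while EGR1 differed by 1.96 with an adjusted p of 0.0467. That call ended without any 1 of the arrays other than control replicate 3, with an adjusted p of up to 0.156. Without control replicate 3 the difference of EGR1 was 4.89 at 20 h (adjusted p = 3.74e-07) and 2.82 at 8 h (adjusted p = 1.79e-05). With any 1 other array left out, it ran down to 3.50 at 20 h and 1.43 at 8 h, both without control replicate 1. JUN rose by 1.46 at 20 h and 0.70 at 8 h, and FOXO3, a forkhead factor known to act on BCL2L11 and BBC3, by 0.52 and 0.77.

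Genes that act on these proteins after transcription moved both ways. Of 24 measured, 9 rose and 7 fell at 20 h, where 13.1% of all genes were called higher and 17.2% lower. At 8 h 5 rose and 2 fell, against shares of 5.93% and 6.28%. The PIM kinases, known to phosphorylate BAD, rose at both times: PIM1 by 2.01 at 20 h and 1.59 at 8 h, PIM2 by 1.52 and 0.76, and PIM3 by 1.51 and 0.67. Other kinase genes of the list fell at 20 h: PRKACA by 0.74, AKT1 by 0.38 and RPS6KA1 by 0.34 (limma adjusted p = 0.00821, 0.0177 and 0.0233). The calls of AKT1 and RPS6KA1 passed in 16 and 13 of the 19 alternatives. Without control replicate 3 RPS6KA1 did not pass (-0.30, limma adjusted p = 0.0664). MTCH2 fell by 0.63 at 20 h (limma adjusted p = 0.000136). CASP8, the caspase that cleaves BID, fell by 1.16 at 20 h (limma adjusted p = 5.44e-05) and by 0.70 at 8 h (limma adjusted p = 0.00504). It averaged 3.37 at 20 h, 3.84 at 8 h and 4.54 in controls, where the median of all genes was 3.89. MAPK8, which encodes the kinase JNK1, rose by 1.27 at 8 h and by 0.47 at 20 h, and the second of these calls ended without 20 h replicate 1 or without control replicate 1 (highest adjusted p 0.0580). DYNLL1 and DYNLL2, dynein light chains that hold BIM and BMF at the cytoskeleton, rose by 0.25 and 0.54 at 20 h, and the call of DYNLL1 ended without any 1 of the 20 h arrays (highest adjusted p 0.10). Without control replicate 1, 7 of the 24 rose and 3 fell at 20 h, and without 20 h replicate 2, 8 rose and 4 fell. Without control replicate 3, 9 rose and 6 fell at 20 h, and 6 rose and 2 fell at 8 h. Without 8 h replicate 1 or 2, CASP8 was the 1 gene of the list that fell at 8 h, and the call of YWHAH, a 14-3-3 gene that differed by -0.50, ended (highest adjusted p 0.0899).

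**Figure D3:**
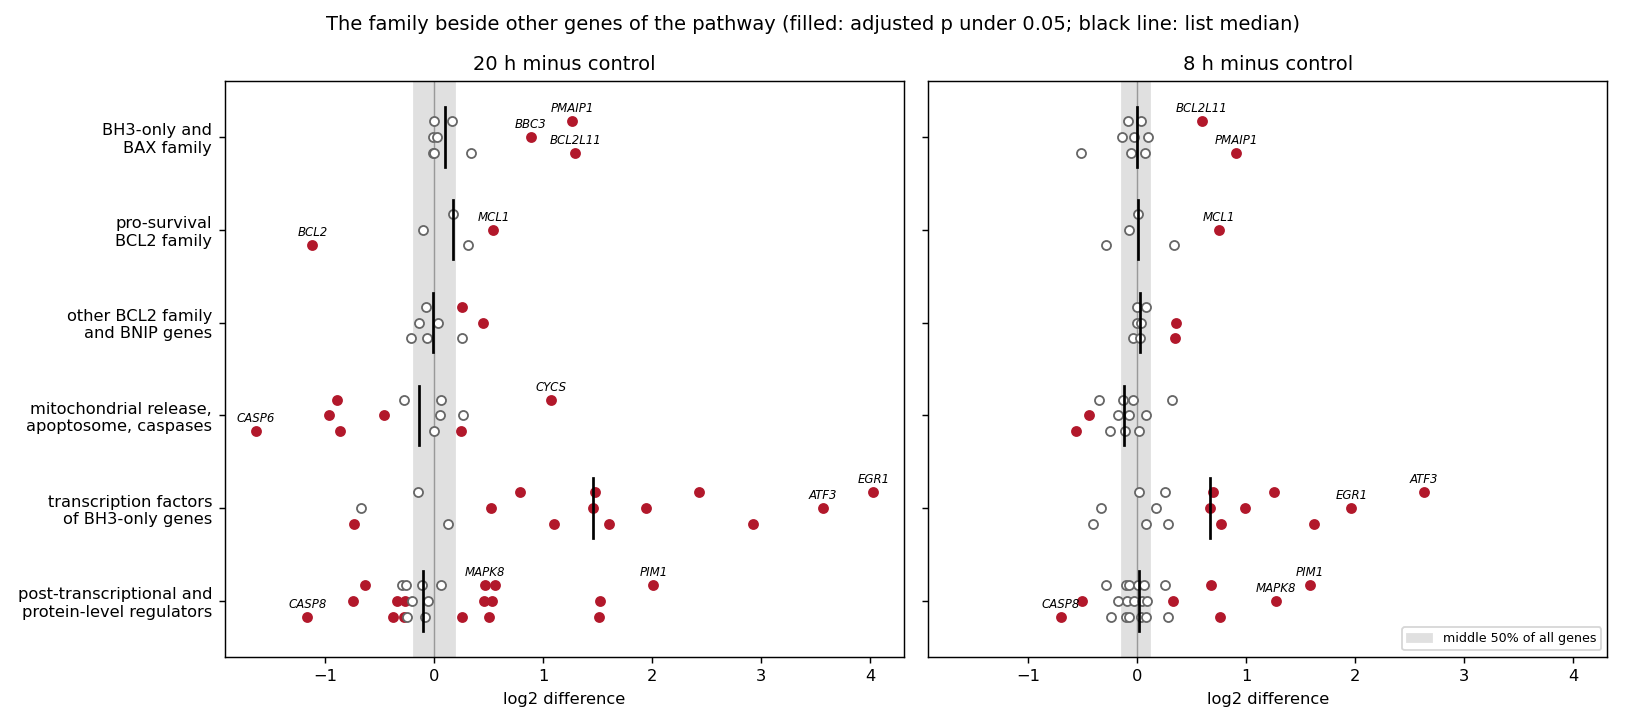
Log2 difference from control (horizontal axis) at 20 h and at 8 h for the 10 genes and for 5 lists of other genes of the pathway. Each point is a gene, filled where limma's adjusted p was under 0.05, with vertical offsets only to separate points. Black lines are list medians and the grey band is the middle 50% of all genes, which at 20 h ran from -0.18 to 0.20. In the top row 3 filled points stand to the right of the band at 20 h and 2 at 8 h.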

How the data were processed

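Per the labels, the authors hybridised labelled total RNA to Affymetrix whole-transcript arrays, and per the submitters' processing notes the deposited log2 values are RMA summaries from Affymetrix Expression Console. Software versions, the array annotation build and scan batches are not given in the sources used here. The file holds 53617 probe sets on 9 arrays. Of these, 23558 carry 1 symbol, and the brightest probe set per symbol gave 22109 genes. An array has no read depth, so precision rests on how many arrays there are and on how far each probe set varies between them.

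With lmFit and eBayes of limma 3.58.1 (R 4.3.3), 3 group means were estimated over the 9 arrays together, with 6 residual and 4.01 prior degrees of freedom. Tests were two-sided and adjusted by Benjamini and Hochberg over all genes, with calls at 0.05 and 95% intervals. An exact permutation test of 3 against 3 arrays cannot go below 0.1 and was not used. The fitting code was tested on simulated data.

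The members and gene lists were chosen with earlier results of these data known. All 10 members are named. From each pathway list, up to 6 called genes were taken by size of change, and others named there were chosen after their values were seen. The 3 genes most like each called member came from genes above the median level. A planned search for a protein motif was not run. Listed genes without a probe set of their own were not used here. Alternatives were 10 changes of processing or design and leaving out each array. Figures were drawn with matplotlib 3.10.9, and the tables behind them with pandas 2.3.3 in Python 3.11.15.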

Additional observations from a re-analysis of the deposited data

Results flagged for a closer look

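Levels differed between the 20 h and the 8 h group for 4 of the 10 genes, by the test of 20 h against 8 h in limma. Over all genes, 8.95% were called higher and 13.6% lower in that comparison. BBC3 differed most, by 0.79 (adjusted p = 0.000204), with all 20 h arrays above all 8 h and control arrays. BCL2L11 was higher at 20 h by 0.71 (adjusted p = 0.00267), PMAIP1 by 0.36 (adjusted p = 0.0173) and BID by 0.40 (adjusted p = 0.0480). Of these, BBC3 and BCL2L11 passed in all 19 alternatives, PMAIP1 in 17 and BID in 11. Time and dose differ together between these groups and cannot be told apart, and the untreated controls have no time given. Groups of 3 arrays are too small for a test of single outlying arrays, so none was made.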

How the results depend on the processing

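In all 19 alternatives PMAIP1 and BCL2L11 rose at 8 h (highest adjusted p 0.00182 and 0.0483), and they and BBC3 rose at 20 h (highest adjusted p 0.000621). At 20 h against control 3 or 4 of the 10 genes were called, the fourth being BID, which passed with only genes above the median level (0.0421), repeated quantile normalization (0.0365), array weights (0.0268) and without control replicate 3 (0.0169). At 8 h 2 were called in every setting. Between 20 h and 8 h, leaving out 1 array gave 2 to 5. With the replicate block, 3, 2 and 3 genes were called, and BID between 20 h and 8 h did not pass (adjusted p = 0.0805). It also did not pass with 8 h replicates 1 and 2 as 1 sample (0.0806). Same-numbered arrays had deviations from their group means that correlated at -0.318 to 0.111. Differently numbered arrays were not set beside them, so these values cannot say whether the numbers pair the samples. The block moved the count of all genes called at 8 h to 2204, against 2698. Counts over all genes stayed within 1.5 times of the reported ones in every setting.

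Signs turned only for differences that passed in no setting. At 20 h against control, BAD became 0.0489 with repeated quantile normalization and 0.0315 with array weights, and leaving out 1 array gave -0.112 to 0.111. BAX became 0.0298 and 0.155 in those settings, and -0.224 to 0.312 with 1 array left out. BMF became -0.0246 when centred and -0.0186 with array weights, and -0.0470 to 0.0850 with 1 array left out. HRK became 0.0092 with array weights, and -0.0658 to 0.0696 with 1 array left out. At 8 h against control, BID became 0.0284 with array weights and -0.185 to 0.0571 with 1 array left out, and BAD -0.0285 to 0.145. At 20 h against 8 h, BAD became 0.0163 with repeated quantile normalization and -0.176 to 0.0381 with 1 array left out, and HRK -0.10 to 0.0354. The cause was not tested.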

Other observations

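Some of these genes had exactly the same deposited value, to 5 decimals, on more than 1 array. BCL2L11 was 5.15494 on 8 h replicates 1 and 3, BIK was 2.86278 on control replicate 1 and 8 h replicates 2 and 3, and HRK was 2.8667 on 8 h replicates 2 and 3 and 20 h replicate 1. BAD and BMF each shared a value between control replicate 1 and 1 of the 8 h arrays. That is 5 of the 10 genes, and over all genes 45.1% shared a value between arrays. Within the 8 h group 14% of genes did so, within controls 10.9% and within the 20 h group 8.53%. The 8 h SD of BCL2L11, 0.04, rests on such a pair, and how far repeated values narrow the spread was not tested.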
